A study of Mus musculus with 65 samples.

Results

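The regions described here are YY1 peaks that carried the cohesin subunit RAD21 but neither CTCF nor LDB1. They were chosen among the YY1 peaks of untreated LDB1-AID cells on chromosomes 1 to 19 and X. Each had to share at least 1 bp with a RAD21 peak of the same cells, and none with a CTCF or an LDB1 peak. They were thus chosen by the measured peak positions of these 4 sets, so their overlaps with those sets are a description and no finding. Of 12816 YY1 peaks, 3540 (27.6%) touched RAD21, and 2318 of those also touched CTCF or LDB1. The remaining 1222 peaks, 9.53% of all YY1 peaks (Wilson 95% interval 9.04 to 10.1), are called YY1-RAD21 sites below.

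The study used chromatin immunoprecipitation and sequencing (ChIP-seq) in G1E-ER4, a mouse line labelled as erythroblast. G1E cells derive from Gata1-null embryonic stem cells, and the ER4 derivative expresses GATA1 fused to a hormone-binding domain. The sublines used here carry an auxin-inducible degron on LDB1 (LDB1-AID) or on the cohesin subunit SMC3 (SMC3-AID), and auxin leads to loss of the tagged protein, which the peak lists do not measure. No hormone treatment and no clone number are given for these samples in the sources used here. The YY1, RAD21, CTCF and LDB1 sets that chose the sites came from untreated LDB1-AID cells, 2 replicates each. The 5 sets that took no part in the choice were LDB1 after 4 h of auxin in LDB1-AID cells (2 replicates), and LDB1 and RAD21 in SMC3-AID cells, each untreated and after 4 h of auxin (3 replicates each).

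YY1 is a zinc-finger protein that binds DNA at many promoters and enhancers and can pair with itself, which can bring bound sites together. Cohesin is a ring-shaped complex that extrudes chromatin loops, and it accumulates where CTCF, another zinc-finger protein, halts it. LDB1 does not bind DNA itself and is brought to erythroid enhancers by GATA1, TAL1 and LMO2. YY1 peaks on either of these 2 proteins were set aside by the rule.

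Each deposited set lists positions only, and every peak was 400 bp wide. The 9 sets ranged from 25 to 54286 peaks. They hold no height or read count, so depth is unknown, and a missing peak means that none was called. Each set combines its replicates, so the values below carry no error between replicates. The intervals cover counting error only, and the tests compare peaks, which are not replicates of a condition. The lists hold no expression, so the erythroblast label was not checked against marker genes. Positions are in mm9, and genes, exons, promoters and sequences of that build were not used here.

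In the 5 sets that did not choose them, few of the YY1-RAD21 sites had a peak. A RAD21 peak of untreated SMC3-AID cells was present at 97 of 1222 sites, an LDB1 peak of those cells at 20, an LDB1 peak of auxin-treated SMC3-AID cells at 14 and an LDB1 peak of auxin-treated LDB1-AID cells at 27. A RAD21 peak of auxin-treated SMC3-AID cells was present at 0 sites, where a count of 0 allows a share of up to 0.245% (taken as 3 counts of 1222; the Wilson upper limit is 0.313%). Together 1085 sites (88.8%) had none of these 5 sets, 122 had 1, 11 had 2, 2 had 3 and 2 had 4. The share with none was not counted over all YY1 peaks. Set by set, in the order named above, the shares over all 12816 YY1 peaks were 8.00%, 13.4%, 12.3%, 3.87% and 0.0234%. For RAD21 of SMC3-AID cells the sites as a whole thus stood near all YY1 peaks, and for LDB1, barred by the rule in the other subline, they stood below. At YY1 peaks that touched none of the other 3 proteins the shares were 0.62%, 0.822%, 0.633%, 0.848% and 0.0135%. Having none of the 5 sets was thus more frequent there than at the sites.

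The first comparison asked whether the RAD21 that defined the sites was also called in the other subline. Of the YY1-RAD21 sites, 7.94% (6.55 to 9.59) had a RAD21 peak in untreated SMC3-AID cells. Among the 7425 YY1 peaks that touched none of the other 3 proteins, 0.62% (0.465 to 0.825) did. Fisher's exact test gave an odds ratio of 13.8 (95% interval 9.58 to 20.2) and, two-sided as all tests here, an adjusted p of 4.5e-49. This comparison was added with the data in view, and the rule itself split these classes by RAD21 of LDB1-AID cells. A higher share of RAD21 at the sites was therefore to be foreseen, and the test supports no trait of the sites. Most of the sites were not called for RAD21 in the other subline. YY1 peaks with CTCF alone, which had no RAD21 peak in LDB1-AID cells, had one in SMC3-AID cells at 47 of 589 (7.98%, 6.05 to 10.5), a share close to that of the sites; that pair was not tested.

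YY1 peaks on CTCF carried RAD21 in both sublines far more often. Of the 1388 YY1 peaks with RAD21 and CTCF but no LDB1, 638 had a RAD21 peak in SMC3-AID cells, which was 46% (43.4 to 48.6). Against these, the YY1-RAD21 sites had an odds ratio of 0.101 (0.0795 to 0.128, adjusted p = 9.0e-112 by Fisher's exact test). The 760 YY1 peaks with RAD21 and LDB1 but no CTCF lay between, with 108 peaks or 14.2% (11.9 to 16.9). Against the latter class the sites had an odds ratio of 0.521 (0.385 to 0.704, adjusted p = 2.0e-05 by Fisher's exact test). That last difference was lost when every overlap had to cover at least 200 bp, where the odds ratio was 1.13 (0.802 to 1.62, adjusted p = 0.5 by Fisher's exact test). In that setting, peaks that shared less than 200 bp with CTCF or LDB1 counted as without it, so sites could touch either protein.

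**Figure D1:**
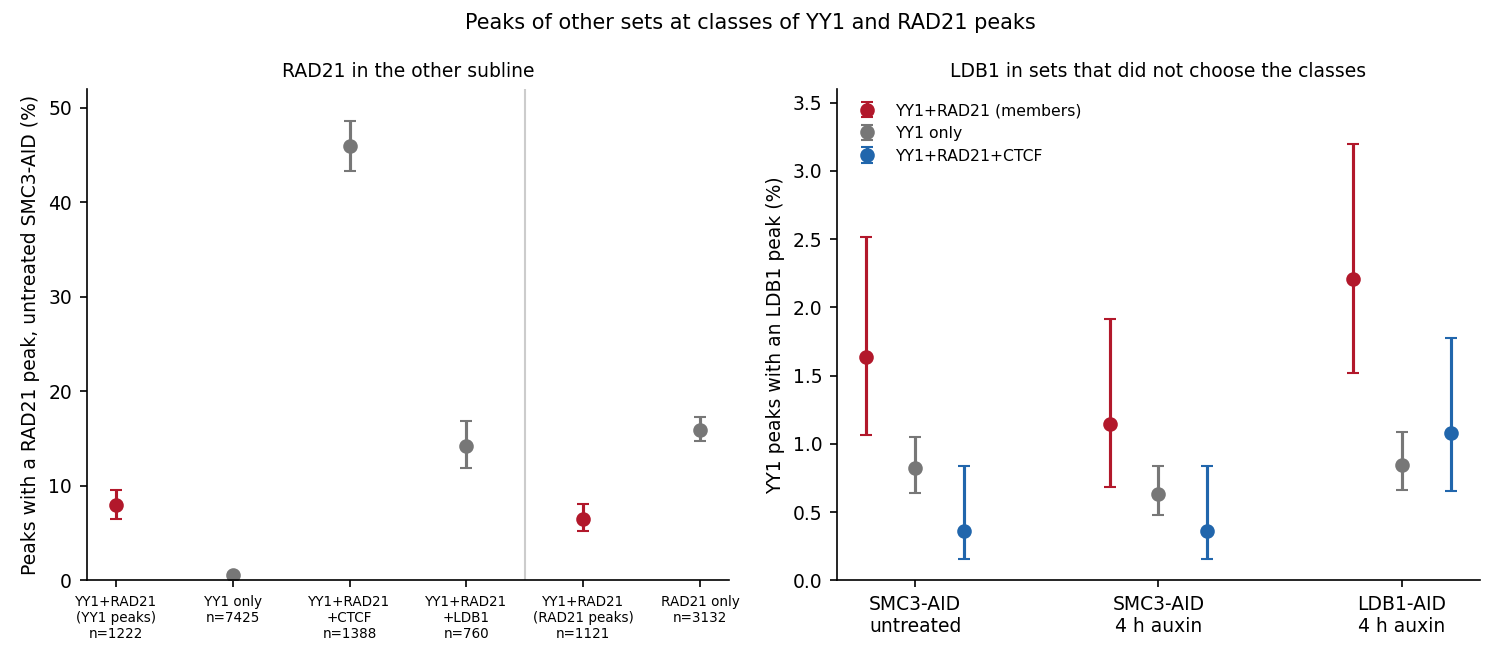
Left, percent of peaks with a RAD21 peak of untreated SMC3-AID cells in 4 classes of YY1 peaks and, right of the line, 2 classes of RAD21 peaks; right, percent of YY1 peaks with an LDB1 peak in 3 sets. Points are shares and bars Wilson 95% intervals over peaks; the YY1-RAD21 sites (red, "members") lie at 7.94% in the left panel, above YY1 only and far below the class with CTCF.

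RAD21 peaks without YY1 gave another view of the same step. Taking the RAD21 peak as the unit, 1121 RAD21 peaks touched YY1 and neither CTCF nor LDB1, and 73 of them (6.51%, 5.21 to 8.11) were called in SMC3-AID cells. Of 3132 RAD21 peaks with none of the 3 proteins, 500 (16%, 14.7 to 17.3) were called there. The odds ratio, also added with the data in view, was 0.367 (0.28 to 0.475, adjusted p = 6.2e-17 by Fisher's exact test). It was 0.616 (0.381 to 0.965, adjusted p = 0.042 by Fisher's exact test) when no CTCF or LDB1 midpoint lay within 1 kb. Over all 33160 RAD21 peaks of LDB1-AID cells, 43.4% were called in SMC3-AID cells. The SMC3-AID set was smaller, with 15245 against 33204 peaks, and the part of depth, calling or subline in these shares was not tested.

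CTCF was often near the YY1-RAD21 sites without touching them. The nearest CTCF midpoint lay at a median of 3.54 kb (quartiles 1.07 to 11.5 kb), against 5.21 kb for YY1 only peaks. At 296 sites (24.2%) it lay from 400 bp to under 1 kb away, where 400 bp is the closest the rule allows. Among YY1 only peaks, 891 (12%) lay as close. The RAD21 peak overlapping the site had no CTCF or LDB1 peak at 1041 sites (85.2%). At 143 sites that RAD21 peak touched a CTCF peak that the YY1 peak did not reach, at 33 an LDB1 peak and at 5 both. The absence of CTCF therefore holds for the YY1 peak itself and not for its whole surroundings.

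The RAD21 peaks seen in both sublines were found mostly next to CTCF. Of the 97 YY1-RAD21 sites with RAD21 in SMC3-AID cells, 67 lay among the 296 with CTCF at 400 bp to under 1 kb, a share of 22.6% (18.2 to 27.7). Of the 926 sites with CTCF at 1 kb or more, 30 had it, a share of 3.24% (2.28 to 4.59). By steps the share was 29.4% (21.6 to 38.5) at 400 to under 500 bp, 18.7% (13.8 to 24.9) at 500 bp to under 1 kb and 3.23% (1.39 to 7.33) at 1 to 2 kb. These distance steps were set with the shares in view and have no test. YY1 only peaks stayed low at each of these steps, with 2.36% (1.55 to 3.58) at 400 bp to under 1 kb. RAD21 peaks without CTCF, LDB1 and YY1 followed the same course at a higher level, from 43.6% (40.4 to 46.9) at 400 bp to under 1 kb to 4.64% (3.84 to 5.59) beyond.

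The positions of these SMC3-AID peaks were also closer to RAD21 than to YY1. At the 97 sites the SMC3-AID RAD21 midpoint lay at a median of 68 bp from the LDB1-AID RAD21 midpoint and 210 bp from the YY1 midpoint. It was nearer to RAD21 at 68 of them. It overlapped the LDB1-AID RAD21 peak at 86 sites, and a CTCF peak at 36.

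The side of YY1 on which RAD21 lay was compared with the side of the nearest CTCF peak, using the positions that chose the sites, as a description with no test. With CTCF at 400 to under 500 bp, the RAD21 midpoint was displaced from YY1 toward CTCF at 95 of 109 sites, or 87.2% (79.6 to 92.2). With CTCF at 500 bp to under 1 kb it was so at 117 of 187, or 62.6% (55.4 to 69.2). From 1 to 5 kb it was 51.8% (47 to 56.6) of 417 sites, and beyond 5 kb 51.6% (47.2 to 55.9) of 508. The share on the CTCF side was highest where CTCF was closest. Toward LDB1 the shares were 82.1% (64.4 to 92.1) of 28 sites at 400 to under 500 bp and 50% (36.4 to 63.6) of 48 at 500 bp to under 1 kb.

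**Figure D2:**
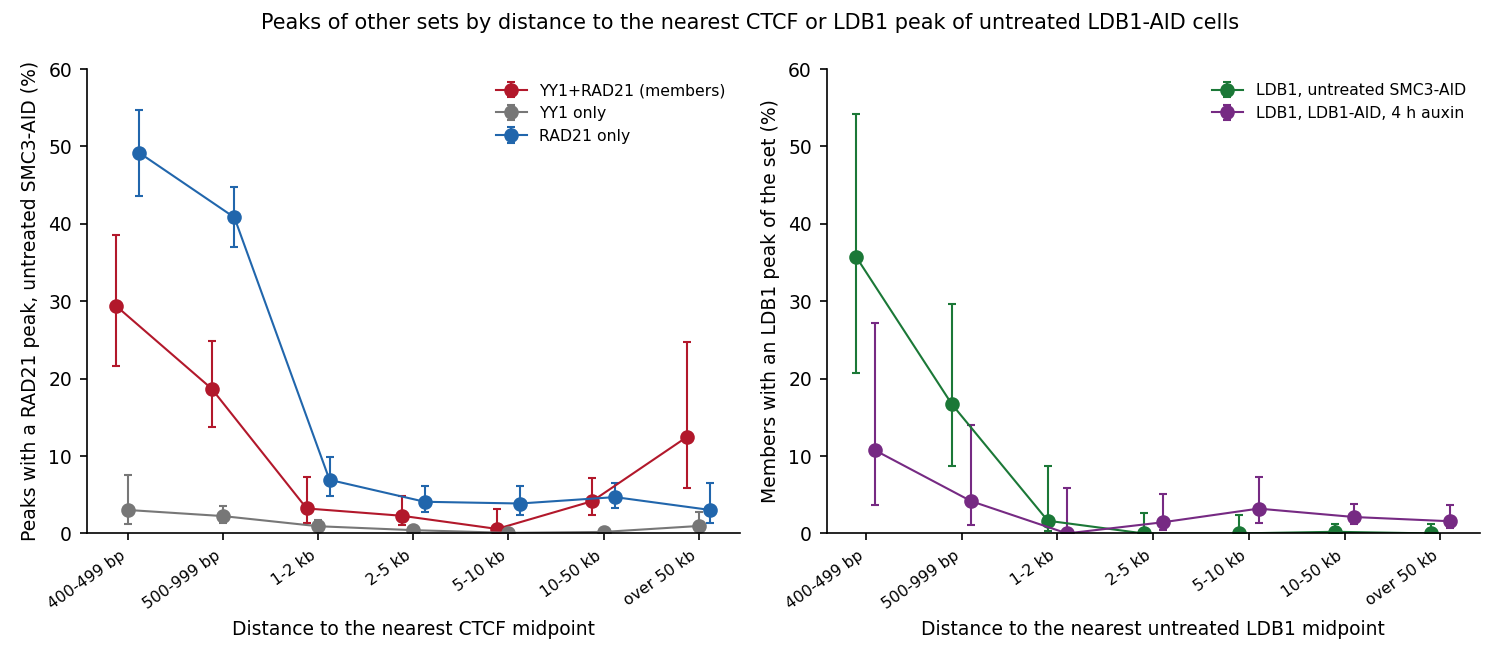
Left, percent of peaks with a RAD21 peak of untreated SMC3-AID cells by distance to the nearest CTCF midpoint, for the YY1-RAD21 sites, YY1 only peaks and RAD21 peaks without YY1, CTCF and LDB1 (RAD21 only); right, percent of YY1-RAD21 sites with an LDB1 peak of 2 other sets by distance to the nearest untreated LDB1 midpoint. Bars are Wilson 95% intervals; the shares at the YY1-RAD21 sites drop from 29.4% (RAD21) and 35.7% (LDB1, SMC3-AID) in the closest step to 3.23% and 1.64% at 1 to 2 kb.

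YY1 and RAD21 were spaced more loosely at these sites than where CTCF or LDB1 joined them. The median distance between the YY1 and RAD21 midpoints was 162 bp (quartiles 81 to 274) at YY1-RAD21 sites, 124 bp (58 to 220) with CTCF and 126 bp (56.8 to 217) with LDB1. Midpoints under 100 bp apart made up 30.4% of the YY1-RAD21 sites, 41.3% of the class with CTCF and 40% of the class with LDB1. Midpoints at least 300 bp apart made up 19.4%, 10.4% and 11.8%. These distances come from the sets that chose the sites and are a description. At 143 sites the RAD21 peak touched CTCF, at 33 LDB1 and at 5 both, and there the rule kept YY1 off those peaks. The part of this bar in the looser spacing was not tested.

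The sites with the loosest spacing did not have fewer RAD21 peaks in the other subline. With midpoints under 100 bp apart, 19 of 371 sites (5.12%, 3.3 to 7.86) had a RAD21 peak in SMC3-AID cells, and at 300 bp or more, 25 of 237 (10.5%, 7.25 to 15.1). In the class with CTCF the shares were 48.3% (44.3 to 52.4) and 36.8% (29.4 to 44.9). Closeness to CTCF or LDB1 was not held equal between these spacings. Where the site's RAD21 peak touched CTCF, 39 of 143 sites (27.3%, 20.6 to 35.1) had RAD21 in SMC3-AID cells. Where it touched neither CTCF nor LDB1, 52 of 1041 (5%, 3.83 to 6.49) did. A single RAD21 peak touched 1214 of the sites and 2 RAD21 peaks touched 8.

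**Figure D3:**
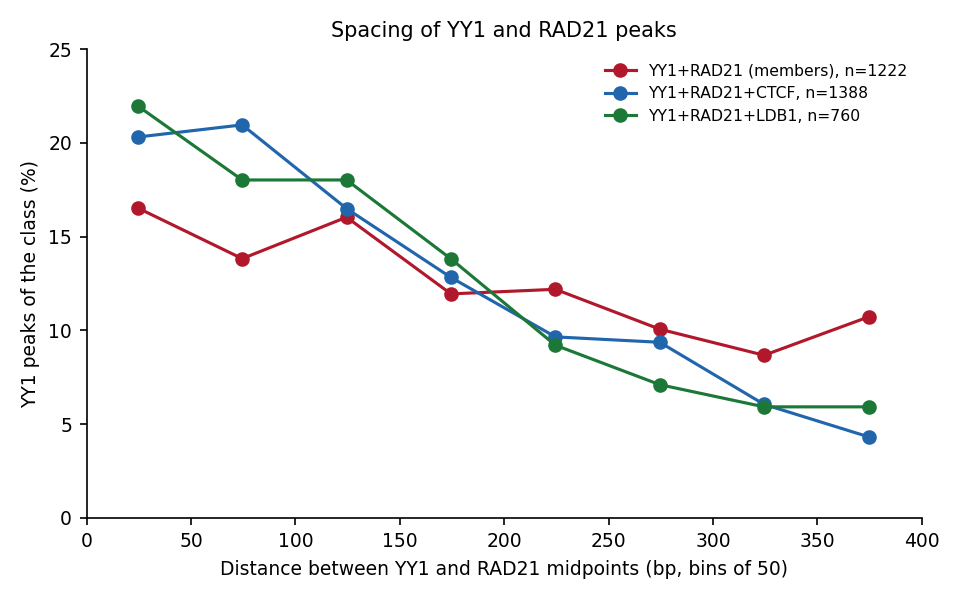
Percent of YY1 peaks in each class by distance between the YY1 and RAD21 midpoints, in steps of 50 bp, for YY1-RAD21 sites and for YY1 peaks with RAD21 that also touch CTCF or LDB1. The YY1-RAD21 sites have 16.5% of their members in the closest step and 10.7% in the widest, against 20.3% and 4.32% with CTCF.

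The limit of 1 shared bp passed through this range. The site at chr4:141115162-141115561 shared 1 bp with its RAD21 peak, and so did the site at chr8:84297403-84297802. Just outside, the YY1 peak at chr15:63480237-63480636 had a gap of 0 bp to RAD21 and that at chr2:56975640-56976039 a gap of 1 bp. Of the 131 sites that shared 1 to 50 bp with RAD21, 19 had RAD21 in SMC3-AID cells, and of the 113 YY1 peaks with a gap of 0 to 49 bp, 11 did. With a gap of 50 to 99 bp it was 1 of 115.

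LDB1 was the second protein barred by the rule, and its peaks in other libraries were examined next. Of the YY1-RAD21 sites, 20 (1.64%, 1.06 to 2.51) had an LDB1 peak in untreated SMC3-AID cells. The share was 0.822% (0.64 to 1.05) at YY1 only peaks, and Fisher's exact test gave an odds ratio of 2.01 (1.14 to 3.39, adjusted p = 0.0098). At YY1 peaks with RAD21 and CTCF it was 0.36% (0.154 to 0.841), with 4.6 as the odds ratio (1.67 to 15.7, adjusted p = 0.0011 by Fisher's exact test). For scale, 81.3% (78.4 to 83.9) of the YY1 peaks with RAD21 and LDB1 had it.

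These LDB1 peaks were almost all on or next to an untreated LDB1 peak of LDB1-AID cells. At 14 of the 20 sites the SMC3-AID LDB1 peak overlapped such a peak. Its midpoint lay at a median of 334.5 bp from YY1 and 257 bp from the nearest untreated LDB1 midpoint. Of the 20 sites, 18 had an untreated LDB1 midpoint at 400 bp to under 1 kb, where they made up 23.7% (15.5 to 34.4) of 76 sites. Among the 1146 sites with LDB1 at 1 kb or more, 2 had an LDB1 peak in SMC3-AID cells (0.175%, 0.0479 to 0.634). When no CTCF or LDB1 midpoint was allowed within 1 kb, the odds ratio was 0.613 (0.0699 to 2.49, adjusted p = 0.76 by Fisher's exact test) against YY1 only peaks and 3.07 (0.159 to 181, adjusted p = 0.68 by Fisher's exact test) against the class with CTCF. Neither LDB1 difference passed the threshold there, nor when midpoints within 500 bp counted as overlap, nor where the RAD21 peak also lacked CTCF and LDB1.

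After auxin in SMC3-AID cells an LDB1 peak was called at 14 of the sites (1.15%, 0.684 to 1.91). Of these, 10 were among the 20 sites with LDB1 before auxin, 50% of the untreated and 71.4% of the auxin list. LDB1 after auxin was present at 0.633% (0.476 to 0.841) of the YY1 only peaks and 0.36% (0.154 to 0.841) of the class with CTCF.

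LDB1 peaks called after auxin in LDB1-AID cells, where LDB1 itself is the tagged protein, were found at 27 of the sites, or 2.21% (1.52 to 3.2). At the other YY1 peaks without untreated LDB1 the shares were 0.848% (0.664 to 1.08) for YY1 only, 1.08% (0.656 to 1.78) for YY1 with RAD21 and CTCF, and 1.53% (0.806 to 2.88) for YY1 with CTCF alone. The interval of the YY1-RAD21 sites lay above that of YY1 only and overlapped the other intervals. The difference was not tested. At YY1 peaks with RAD21 and LDB1 the share was 27.4% (24.3 to 30.6).

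Unlike the sites with LDB1 in the SMC3-AID subline, most of these 27 had no untreated LDB1 midpoint within 1 kb. Such peaks still had a higher share close to untreated LDB1. They were at 6.58% (2.84 to 14.5) of the 76 sites with LDB1 at 400 bp to under 1 kb. At 1 kb or more it was 1.92% (1.27 to 2.89) of 1146 sites. Those intervals just overlap, and the difference was not tested. An untreated LDB1 midpoint lay within 1 kb of 5 of the 27 and within 10 kb of 12, and in 3 cases the auxin peak shared a base with an untreated LDB1 peak. The auxin LDB1 midpoint lay at a median of 132 bp from YY1 and 163 bp from RAD21. Of 1043 auxin LDB1 peaks on these chromosomes, 207 had no untreated LDB1 peak. On a YY1 peak lay 102 of these 207 (49.3%), 24 of them on a YY1-RAD21 site, and 395 of the other 836 (47.2%).

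Around the sites, the median distance to LDB1 was shorter than around YY1 only peaks, though not at close range. The nearest untreated LDB1 midpoint lay at a median of 18.9 kb (quartiles 6.11 to 52.1 kb) from YY1-RAD21 sites, 28.2 kb from YY1 only peaks and 28 kb from YY1 peaks with RAD21 and CTCF. It lay within 10 kb of 35.4% of the YY1-RAD21 sites, 30.9% of YY1 only peaks and 27.6% of the class with CTCF. Within 1 kb the shares were 6.22%, 6.17% and 4.11%. The nearest other YY1 peak was at 15.7 kb, 15.3 kb and 18.8 kb in these classes. These values use the sets of the rule and have no test.

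The sites were found on every chromosome examined. They numbered from 19 on X to 103 on chromosome 2, and their share of the YY1 peaks ranged from 7.17% (5.61 to 9.12) on chromosome 7 to 11.4% (9.22 to 14.1) on chromosome 6. Those intervals did not overlap, but they are the extremes of 20 chromosomes. On X the share was 8.41% (5.45 to 12.8).

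Most sites stood alone. Another YY1-RAD21 site lay within 25 kb of 175 sites (14.3%), within 10 kb of 90 and within 100 kb of 432. Linked at 25 kb, 1047 sites stood alone, 71 chains held 2, 8 held 3, 1 held 4 and 1 held 5.

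The longest chain, of 5 sites, spanned 67.2 kb at chr2:169979707-170046926. It held 11 YY1, 13 RAD21, 8 CTCF and 3 LDB1 peaks of untreated LDB1-AID cells, and 3 RAD21 and 0 LDB1 peaks of untreated SMC3-AID cells. None of its 5 sites carried a peak of the 5 other sets, and their nearest CTCF midpoints lay between 783 bp and 4.86 kb away. The region was thus mixed, with YY1-RAD21 sites interleaved with CTCF and LDB1 peaks.

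The chain of 4 lay at chr19:9016511-9055732 (39.2 kb), with 5 YY1, 6 RAD21, 4 CTCF and 1 LDB1 peaks. Of its sites, 2 only just met the rule, sharing 1 bp and 2 bp with RAD21. The most compact chain of 3 lay at chr9:110547963-110559338 (11.4 kb), with 3 YY1, 4 RAD21 and 1 CTCF peaks. No site of either chain carried a peak of the 5 other sets.

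The sites with peaks in several other sets lay mostly near LDB1. All 4 with at least 3 sets had an untreated LDB1 midpoint within 1 kb, as did 8 of the 11 with 2 sets, while the other 3 had it 5.68 to 86.6 kb away. No site had RAD21 after auxin, and 3 of the remaining sets were LDB1 sets. A site with at least 3 sets therefore had at least 2 LDB1 sets, so this closeness follows in part from the count. The site at chr12:80870753-80871152 had RAD21 and LDB1 in untreated SMC3-AID cells, and LDB1 after auxin in both sublines, with YY1 and RAD21 midpoints 104 bp apart. Its nearest untreated LDB1 midpoint was 438 bp away and its nearest CTCF midpoint 4.11 kb away. The site at chr12:78235513-78235912 had the same 4 sets, with LDB1 at 502 bp and CTCF at 14.7 kb. The site at chr12:78193421-78193820, 42.1 kb from it, had the 3 LDB1 sets and no RAD21 in SMC3-AID cells, with LDB1 at 450 bp. Within 10 kb of that site lay 7 LDB1, 6 RAD21 and 5 YY1 peaks of untreated LDB1-AID cells.

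A further site with 3 sets and a site with 2 sets are described next. The site at chr16:76002483-76002882 had RAD21 and LDB1 in untreated SMC3-AID cells and LDB1 there after auxin, with LDB1 at 578 bp and CTCF at 17 kb. The site at chr6:29651049-29651448, taken from the 11 with 2 sets for the smallest distance between YY1 and RAD21 midpoints (52 bp), had both LDB1 sets of SMC3-AID cells, with LDB1 at 550 bp and CTCF at 3.49 kb. These 5 described sites missed the LDB1 bar of the rule by less than 200 bp.

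**Figure D4:**
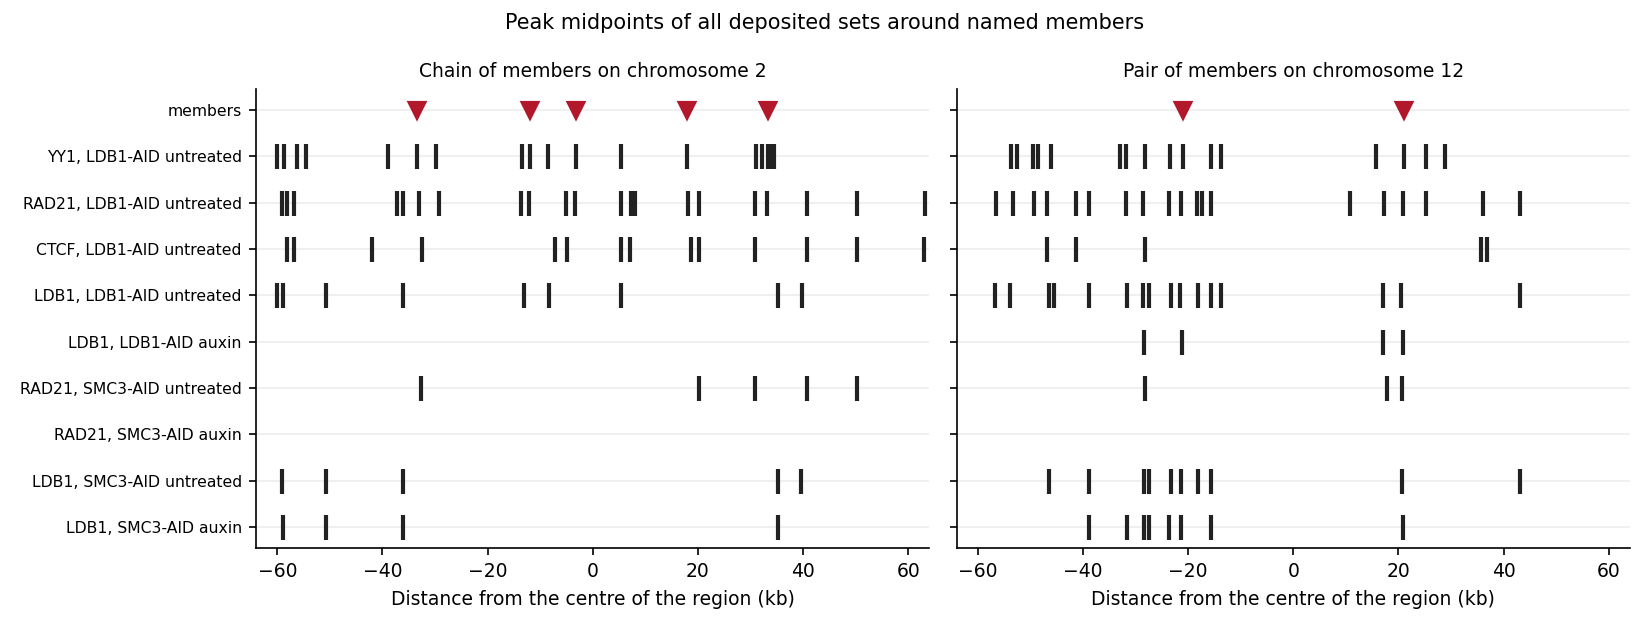
Peak midpoints of the 9 deposited sets (rows) by distance in kb from the centre of the region, for the chain of 5 YY1-RAD21 sites on chromosome 2 (left) and the pair 42.1 kb apart on chromosome 12 (right); triangles mark the sites. On chromosome 2 no site has a peak in the SMC3-AID rows, while on chromosome 12 both sites overlap LDB1 peaks of both sublines after auxin. One overlap is at the edge, with the left site at -21.046 kb and the SMC3-AID auxin LDB1 peak at -21.436 kb.

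The 3 sites picked for the closest match of YY1 to RAD21 of SMC3-AID cells lay near CTCF instead. They were taken on different chromosomes and, by the plan, not on chromosome 18, where 2 sites had RAD21 in SMC3-AID cells. Among all 97 sites with that RAD21, 30 had CTCF at 1 kb or more. Of these, 6 had it at 50 kb or more, including a site on chromosome 18. The 3 picked sites thus do not stand for all 97. At chr3:51365216-51365615 the SMC3-AID RAD21 midpoint was 3 bp from YY1, with CTCF at 729 bp and LDB1 at 7.18 kb. At chr10:38891167-38891566 it was 10 bp from YY1, with CTCF at 460 bp, and this site also had an LDB1 peak after auxin in LDB1-AID cells. At chr5:147656515-147656914 it was 20 bp from YY1, with CTCF at 432 bp. At the last pair of sites the LDB1-AID RAD21 midpoint lay 395 and 330 bp from YY1, and that RAD21 peak touched CTCF.

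Sites with an LDB1 peak after auxin and no untreated LDB1 within 1 kb were also present. The site at chr1:3435722-3436121 had an LDB1 peak after auxin in LDB1-AID cells, with the nearest untreated LDB1 midpoint at 5.95 kb. The site at chr1:51535191-51535590 had one too, with untreated LDB1 at 24.4 kb and CTCF at 12 kb, and it had RAD21 in SMC3-AID cells 282 bp from the YY1 midpoint.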

How the data were processed

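ChIP-seq peak positions of 9 sets, covering 22 of 65 samples, were used; the other samples were not analysed here. The authors deposited each set as start and end positions (other unit: bp, 400 bp peaks), with no score. Per the submitters' processing notes, Bowtie2, MACS2 2.2.9.1, deepTools 3.5.1 and the build mm9 were used; thresholds and the consensus rule are not given in the sources used here. Positions are printed counted from 1. Groups came from sample titles.

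Peaks on chromosomes 1 to 19 and X were compared in Python 3.11.15 (pandas 2.3.3, scipy 1.17.1). Overlap meant at least 1 shared bp; distances are between midpoints. Overlap counts of the YY1 peaks with 9 sets were checked against bedtools 2.31.1 (0 differed), and the code was tested on simulated data. Shares have Wilson 95% intervals. Fisher's exact tests, two-sided, were adjusted (Benjamini-Hochberg) over 6 comparisons at a threshold of 0.05. The conditional odds ratio is given with its exact 95% interval.

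The sites, classes and tests were chosen with earlier results of these data known. Named positions were the 3 chains with most sites and the 5 sites with peaks in most other sets (ties by the smaller YY1 to RAD21 midpoint distance). The 3 sites closest to SMC3-AID RAD21 were taken on different chromosomes and, by the plan, not on chromosome 18. Up to 5 sites with peaks after auxin were also named (those in most such sets, then genome order). So were the pairs just inside and outside the overlap limit. Start site, gene list and motif results, also planned, need a genome of mm9 and were not run.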

Additional observations from a re-analysis of the deposited data

How the results depend on the processing

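Of 61 alternative values over 12 results, 41 stayed past the same threshold in the same direction or, for counts, moved by less than 1.5 times; the number of sites, from 869 to 1272 against 1222, did so throughout, as did every count with autosomes only or with the RAD21 peak as the unit. With no CTCF or LDB1 midpoint within 1 kb, the sites with SMC3-AID RAD21 numbered 23 against 97, with untreated SMC3-AID LDB1 2 against 20, with SMC3-AID LDB1 after auxin 1 against 14, and with LDB1 after auxin in LDB1-AID cells 15 against 27. This setting held 869 sites, so the shares were 2.65% against 7.94%, 0.23% against 1.64%, 0.115% against 1.15% and 1.73% against 2.21%. By construction it removes the sites next to CTCF and LDB1. With sites only where the RAD21 peak also lacked CTCF and LDB1, an alternative added after the data were seen, the first 3 counts were 52, 9 and 6. The LDB1 counts of SMC3-AID cells were 31 untreated and 27 after auxin when 200 bp had to be shared, and 11 and 9 with midpoints within 500 bp. The 200 bp setting also kept peaks that shared fewer bases than that with CTCF or LDB1. The 500 bp setting barred peaks with a CTCF or LDB1 midpoint within that distance. The cause was not tested. Sites with a neighbour numbered 90 within 10 kb and 432 within 100 kb, against 175.

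The odds ratio of SMC3-AID LDB1 against YY1 only peaks went from 2.01 to 1.06 with midpoints within 500 bp, to 1.05 where the RAD21 peak also lacked CTCF and LDB1, and reversed to 0.613 with none within 1 kb, none of them past the threshold. Against YY1 peaks with RAD21 and CTCF it went from 4.6 to 2.26, 2.41 and 3.07. The odds ratio of SMC3-AID RAD21 against YY1 peaks with RAD21 and LDB1 reversed from 0.521 to 1.13 with 200 bp shared. The cause was not tested. The other odds ratios kept direction and threshold under each alternative run. No paired analysis was possible because each set combines the replicates of its group, and for the same reason no replicate could be left out. Start sites and motifs were not examined, since no genome of mm9 was used. Depth is unknown for every set.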

Other observations

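A small group of YY1-RAD21 sites lay far from any CTCF peak. The nearest CTCF midpoint was at 50 kb or more from 48 sites, and 6 of these (12.5%, Wilson 95% interval 5.86 to 24.7) had a RAD21 peak in untreated SMC3-AID cells. At 5 to 10 kb it was 1 of 172 (0.581%, 0.103 to 3.22), and at 10 to 50 kb 12 of 288 (4.17%, 2.4 to 7.14). With the RAD21 peak as the unit, RAD21 peaks with YY1 and neither CTCF nor LDB1 had 4 of 45 (8.89%, 3.51 to 20.7) at 50 kb or more. RAD21 peaks without CTCF, LDB1 and YY1 had 6 of 198 there (3.03%, 1.4 to 6.45). That last interval overlaps both that of the sites and that of the RAD21 peaks with YY1. The step was noticed in the data, and no test was run.

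At the limit for CTCF, YY1 peaks with RAD21 on either side had RAD21 in the other subline. Of 135 that shared 1 to 50 bp with CTCF, and so were left out, 37 (27.4%) had RAD21 in SMC3-AID cells. Of 61 kept with a gap of 0 to 49 bp to CTCF, 23 (37.7%) did. At the limit for LDB1, 15 of 20 left out (75%) and 5 of 14 kept (35.7%) had LDB1 in untreated SMC3-AID cells.

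Outside chromosomes 1 to 19 and X, the YY1 set held 17 peaks, 9 of them with RAD21. Of these, 3 touched neither CTCF nor LDB1.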
